A study of Rattus norvegicus with 6 samples.

Results

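The genes described here are 10 rat genes best known from heart and skeletal muscle, measured in RNA of isolated pancreatic islets: Myl2, Myl3, Myh6, Myh7, Tnnt2, Tnni3, Actc1, Acta1, Mb and Ckm. They were chosen by measured values of these same arrays, because Myl2 had the largest fall with age of any gene named in an earlier analysis, and the other 9 were taken as its relatives in striated muscle. The values between the ages are therefore given as a description of these 10 genes, with no p-value. Counts of genes past a threshold stand beside the share of all probes past it, except where the processing or the arrays were changed. They are 10 of 13903 genes with a name on the array, each read by 1 probe on 1 spot. The islets came from male Wistar rats aged 3 months or 12 months, by collagenase digestion of the pancreas, and total RNA of each was hybridised to a 1-colour (Cy3) Arraystar/Agilent array, with 3 arrays per age. Both ages shared strain, sex and tissue, and none of the labels names a treatment. Islets are small groups of endocrine cells within the pancreas, and the study compared the ages to ask whether altered function of older islets goes with altered transcripts. The RNA came from islets of 3 rats per age for 3 arrays per age, though the labels do not tie an array to a rat.

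The sarcomere is the contractile unit of heart and skeletal muscle, in which thick filaments of myosin pull on thin filaments of actin. A myosin motor carries a heavy chain with light chains bound to its neck, and calcium switches contraction on through troponin and tropomyosin, which sit along the actin filament. Hormone-secreting islet cells are not known for sarcomeres, and the contractile cells usually met around islets are those of smooth muscle in vessel walls. Of the 10 genes, Mb and Ckm serve the oxygen and energy supply of muscle and are no part of the filaments.

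The arrays differed in how much they could read at the dim end, which matters for several of these genes. There were 2 scans, 1 per age, and scan and age therefore cannot be told apart anywhere below. Between 73.0% and 77.4% of all probes were well above background on the 3-month arrays and between 59.5% and 64.2% on the 12-month arrays, and negative control spots had a median signal of 29.5 to 31 scanner units at 3 months and 89.5 to 91 at 12 months. The part of this difference in the results was not tested. Ins1, an insulin gene, was at 18.67 ± 0.22 (SD, n = 3) in 3-month islets and 18.77 ± 0.08 (SD, n = 3) in 12-month islets. These are on the quantile-normalised log2 scale, which is used for every level below. Pnlip, an enzyme of acinar cells, was also bright, at 18.40 and 18.46, so RNA of islet cells was not alone in the samples. Quantile normalisation sets the brightest values alike on every array, so the likeness of the ages in these genes is not read. In whole islets, fewer cells of a type and less RNA per cell cannot be told apart. Levels of different genes come from different probes and are not set against each other.

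Each of the 10 genes was well above background on all 3 of the 3-month arrays. Myh7, Tnnt2, Tnni3, Acta1 and Ckm were also well above it on all 3 of the 12-month arrays, Myl3 and Actc1 on 1 of 3, and Myl2, Myh6 and Mb on 0 of 3. Every one passed the filter of at least 3 arrays above background, and Myl2, Myh6 and Mb passed it through their 3-month arrays alone. The plot of values by array shows these open 12-month points of Myl2, Myh6 and Mb beneath their 3-month points.

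**Figure D1:**
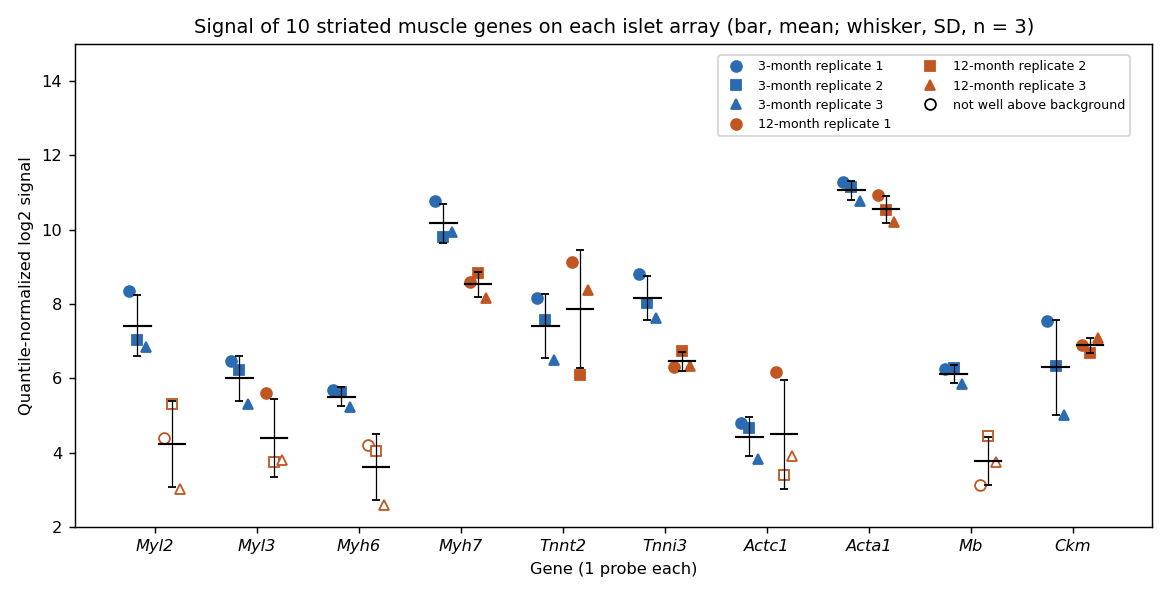
Quantile-normalised log2 signal (vertical axis) of each of the 10 genes (horizontal axis) on the 3 arrays of 3-month islets (blue) and the 3 arrays of 12-month islets (orange), with the mean (bar) and SD (whisker, n = 3) of each age. Open points were not well above background. Myl2, Myh6, Myh7, Tnni3 and Mb had all 3 of their 12-month points below all 3 of their 3-month points, and the other genes had ages that overlapped.

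Stretches of the promoters show which muscle-type sequence motifs lie before these genes, since genes of the sarcomere are often controlled through a shared set of them. Promoter sequences from RefSeq (build GRCr8) were matched by symbol for 9 of the 10 genes, all except Myl2, and the 250 bases before each annotated start were searched on both strands. The motifs were the CArG box (the site of serum response factor), the MEF2 site, the E-box CANNTG, the MCAT element CATTCC, the GATA motif GATA and the TATA box TATAAA, and matches were allowed to overlap. Each line below is a window of 30 bases, 5′ to 3′ along the gene's strand, with the matched motif in capitals. Those shown are the CArG and TATA matches and, for Myh6, Myh7 and Tnni3, which had neither, their MCAT or GATA matches.
Myl3, CArG box, chr8:119616987-119617016, plus strand: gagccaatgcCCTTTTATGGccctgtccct
Acta1, CArG box, chr19:68784269-68784298, minus strand: tgcccaacacCCAAATATGGcttgggaagg
Acta1, TATA box, chr19:68784206-68784235, minus strand: gctccaggactaTATAAAaacctgagctag
Mb, TATA box, chr7:110647785-110647814, minus strand: catctgagaaggTATAAAagcccttcagga
Myh6, MCAT element, chr15:32411703-32411732, minus strand: tctgtggtgcctCATTCCagccgtggtcca
Myh7, GATA motif, chr15:32438373-32438402, minus strand: ccaagaaagtcagGATAcacccgaagagtg
Tnni3, GATA motif read on the other strand, chr1:78342477-78342506, plus strand: cctcacaccctgtTATCgctcatcctggga
Tnni3, GATA motif read on the other strand, chr1:78342537-78342566, plus strand: tgtcctcgcccctTATCtcagtgtcctcag

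The CArG box, a motif of genes driven by serum response factor, was found in 2 of the 9 promoters (Myl3 and Acta1) and in 1.5% of all 33469 promoters searched the same way. It lay 97 to 88 bases before the start of Myl3 and 94 to 85 bases before that of Acta1. The MCAT element was found in 3 of the 9 (Myl3, Myh6 and Acta1) against 12.1% of all promoters, and the TATA box in 2 (Acta1 and Mb) against 12.9%. The E-box matched 7 of the 9 and 65.5% of all promoters, the GATA motif 3 of the 9 (Myh7, Tnni3 and Acta1) and 55.9%, and the MEF2 site 0 of the 9 and 2.96%. Actc1 held 0 matches to any of the 6 motifs in this window. Myh6 and Myh7, neighbours in the genome, shared none of the motifs other than the E-box. A match here is a run of letters and not a binding site.

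Among the thick filament genes, the lower value at 12 months was most plain in Myh7, because its probe was bright on every array. Myh7 encodes the slow, or beta, myosin heavy chain of heart and slow skeletal fibres. Its signal was 10.77, 9.81 and 9.94 on the 3-month arrays and 8.60, 8.83 and 8.16 on the 12-month arrays. All 12-month values lay below all 3-month values, with a difference of -1.64 (limma SE 0.35), or 3.13-fold lower. Before normalisation the scanner signal of Myh7 was 474.7, 848.2 and 1111 at 3 months and 807.0, 734.1 and 282.3 at 12 months, so that the separation of the ages appears only once the arrays are scaled to each other.

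Myl2, which encodes the regulatory light chain of the ventricle and of slow muscle, had the lowest 12-month minus 3-month value of the 10. Its signal was 8.35, 7.04 and 6.84 at 3 months and 4.39, 5.30 and 3.00 at 12 months. The ages did not overlap, and the means were 7.41 ± 0.82 (SD, n = 3) and 4.23 ± 1.16 (SD, n = 3). The fitted difference was -3.18 (SE 0.66), but at 12 months the probe was not well above background (0 of 3 arrays). Only a bound can therefore be given, namely at least 5.68-fold lower at 12 months, the 3-month mean being set against the higher of each dim array's own value and the lowest signal well above background there. The bound was 7.07-fold when arrays were instead shifted to a common 75th percentile and 2.51-fold after another background correction (normexp). Scanner signals of Myl2 were 107.6, 115.6 and 125.7 at 3 months and 31.8, 51.8 and 9.0 at 12 months, which do not overlap even without scaling.

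Myh6 encodes the fast, or alpha, myosin heavy chain of the heart and lies beside Myh7. Its signal was 5.68, 5.62 and 5.23 at 3 months and 4.20, 4.04 and 2.59 at 12 months, without overlap. The difference was -1.90 (SE 0.46), of which the background leaves a bound of at least 1.63-fold lower. Myl3, the essential light chain of the ventricle and of slow muscle, stood at 6.46, 6.21 and 5.31 at 3 months and at 5.59, 3.76 and 3.79 at 12 months. These overlapped, since 12-month replicate 1, the one 12-month array with Myl3 well above background, lay above 3-month replicate 3. The difference of Myl3 was -1.61 (SE 0.58), and it was -0.49 after the normexp correction and -2.10 after the 75th percentile shift. Myh6 and Myh7 are near-identical over long stretches, and since probe sequences were not used here it is uncertain how far either probe reads the other transcript.

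The thin filament genes did not share a direction. Tnni3, the troponin I of the heart, which holds the filament off in the absence of calcium, was the one thin filament gene whose ages did not overlap. Its signal was 8.80, 8.04 and 7.63 at 3 months and 6.30, 6.74 and 6.32 at 12 months. The difference was -1.70 (SE 0.35), or 3.25-fold lower, with means of 8.15 ± 0.59 (SD, n = 3) and 6.45 ± 0.25 (SD, n = 3). After the normexp correction the difference of Tnni3 was -1.13. Its scanner signals, 138.9, 228.3 and 216.8 against 139.9, 150.8 and 75.7, overlapped before scaling.

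Tnnt2, the troponin T of the heart, which ties the troponin complex to tropomyosin, stood at 8.17, 7.56 and 6.49 at 3 months and at 9.14, 6.09 and 8.39 at 12 months. The 12-month values held both the highest and the lowest of the 6. The difference was 0.47 (SE 0.82), and leaving out single arrays moved it from -0.17 without 12-month replicate 1 to 1.35, so that these arrays give no direction for Tnnt2. Its partner on the filament, Tnni3, thus had ages apart where Tnnt2 did not.

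Acta1, the actin of adult skeletal muscle, had 11.27, 11.14 and 10.76 at 3 months and 10.93, 10.52 and 10.21 at 12 months. The ages overlapped, and the difference was -0.50 (SE 0.29), or 1.42-fold lower. Actc1, the actin of the heart, had 4.79, 4.66 and 3.83 at 3 months and 6.16, 3.39 and 3.92 at 12 months. The one high value was that of 12-month replicate 1, the only 12-month array on which Actc1 was well above background. Its difference was 0.07 (SE 0.72), was -0.77 without 12-month replicate 1 and -0.57 after the 75th percentile shift, so no direction can be given. The coding sequences of Acta1 and Actc1 are close to each other, and it is uncertain how far each probe reads the other.

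Myoglobin and creatine kinase, the supply genes, were unlike each other. Mb, the oxygen store of heart and slow muscle, had 6.24, 6.28 and 5.85 at 3 months and 3.13, 4.44 and 3.74 at 12 months. These did not overlap, with a difference of -2.35 (SE 0.37) and a bound of at least 2.49-fold lower (3.49-fold after the 75th percentile shift and 1.43-fold after normexp). Ckm, the muscle creatine kinase, which regenerates ATP at the myofibril, had 7.55, 6.32 and 5.0 at 3 months and 6.89, 6.69 and 7.08 at 12 months. Its 3-month values spread on both sides of the 12-month ones, which lay close together (SD 1.27 against 0.20, n = 3 each). The difference of 0.60 (SE 0.61) was between -0.05 (without 3-month replicate 3) and 1.23 when single arrays were left out.

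**Figure D2:**
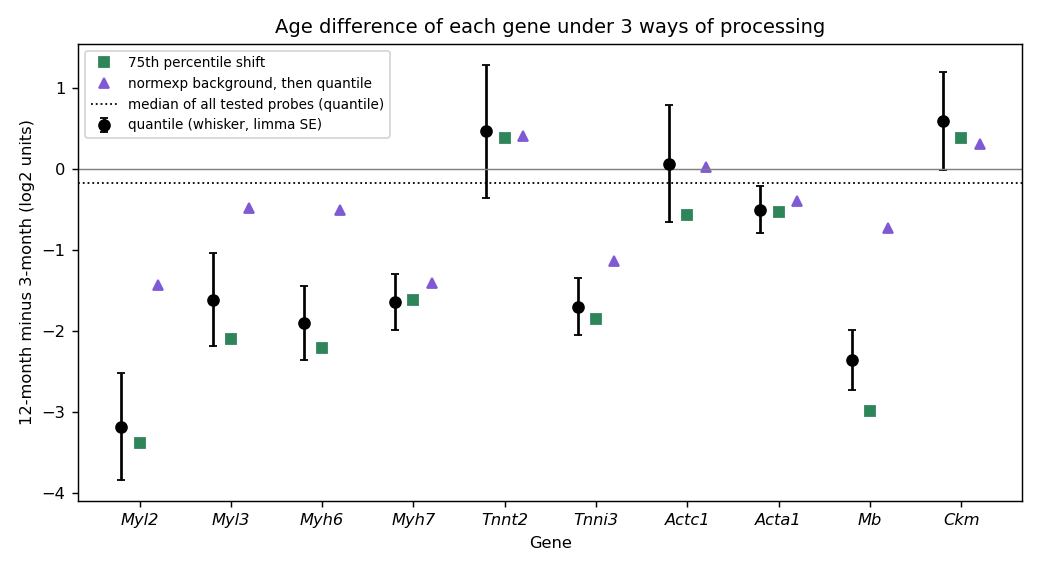
Difference between the age means, 12-month minus 3-month in log2 units (vertical axis), for each gene (horizontal axis) with quantile normalisation (circles, whisker the limma SE), a 75th percentile shift (squares) and normexp background correction before quantile normalisation (triangles). The dotted line at -0.17 is the median of all tested probes under quantile normalisation. Myh7 and Acta1 stay in place under the 3 ways, while Myl2, Myl3, Myh6 and Mb, all dim at 12 months, move towards 0 with normexp. Tnni3, well above background on every array, also moves, from -1.70 to -1.13.

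Of the 10 genes, 7 had a difference below 0 and the median was -1.63, against a median of -0.17 over all 17941 tested probes. After the 75th percentile shift the median of the 10 genes was -1.74 and that of all probes -0.40. After normexp these medians were -0.50 and -0.10. For the 5 genes above background on all 6 arrays the median was -0.50, and for the 13494 such probes -0.08. With limma and Benjamini-Hochberg adjustment over all tested probes, 4 of the 10 were called at an adjusted p under 0.05, Mb, Myh7, Myl2 and Tnni3, all lower, where 3.05% of all tested probes were called lower and 5.32% higher. Leaving out single arrays gave 0 calls (without 3-month replicate 1, 3-month replicate 3, 12-month replicate 1 or 12-month replicate 3), 1 call, Mb (without 3-month replicate 2), or 5 (without 12-month replicate 2). At the threshold the study used, more than 2-fold with an unadjusted p under 0.05, 6 were called, all lower, with Myh6 and Myl3 added, where 11.9% of probes were called lower and 10.1% higher. The ages did not overlap in 5 genes, all lower, and 22.6% of all tested probes were likewise lower without overlap. Myl2, Myh6 and Mb passed the filter through their 3-month arrays alone, so their calls rest on 12-month values not well above background. Since this contrast chose the genes, nothing is read from these counts.

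At 3 months the 10 genes were mostly ordered alike over the arrays, whereas at 12 months they were not. At 3 months, replicate 1 was the highest of the 3 arrays for 9 genes (replicate 2 for Mb), and replicate 3 the lowest for 9 (replicate 2 for Myh7). Over all tested probes, 32.93% were highest on 3-month replicate 1 and 33.48% lowest on 3-month replicate 3. At 12 months 5 genes were highest on replicate 1 (Myl3, Myh6, Tnnt2, Actc1 and Acta1), 4 on replicate 2 (Myl2, Myh7, Tnni3 and Mb) and 1 on replicate 3 (Ckm). Myl3, Tnnt2, Actc1 and Ckm were instead lowest on replicate 2, as the map of deviations shows. Replicates have no order of their own, and all 6 arrays were normalised together.

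**Figure D3:**
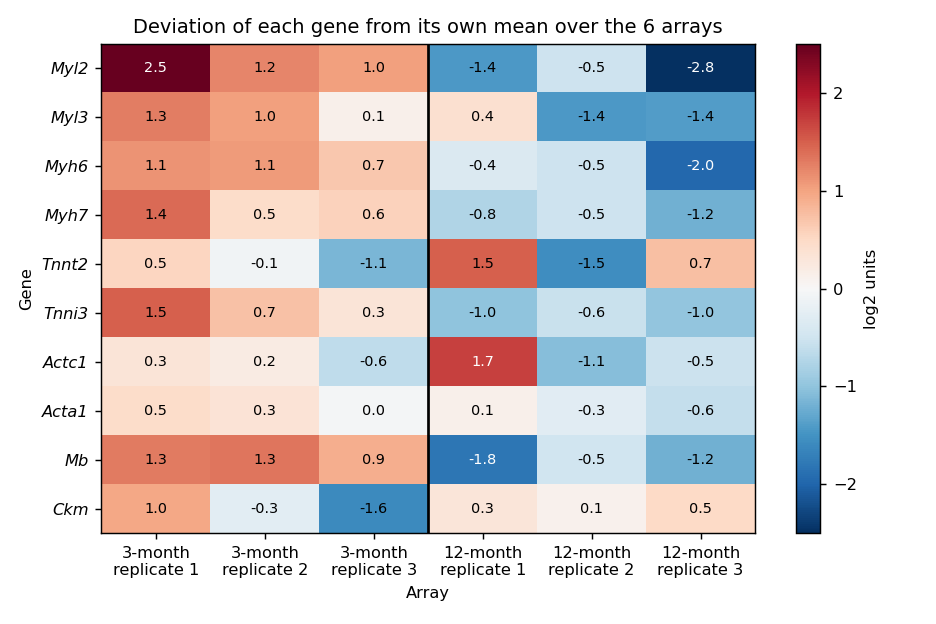
Deviation in log2 units (colour, with the value in each cell) of each gene (rows of cells) from its own mean over the 6 arrays (columns of cells), 3-month arrays to the left of the line and 12-month arrays to the right. The cells of Myl2, Myh6, Myh7, Tnni3 and Mb are above 0 on each 3-month array and below 0 on each 12-month array, whereas 12-month replicate 1 stands out as high for Tnnt2 and Actc1.

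Over the 6 arrays the correlation with Myl2 was 0.98 for Myh7, 0.96 for Tnni3, 0.95 for Myh6, 0.91 for Mb, 0.82 for Acta1 and 0.76 for Myl3, and it was 0.01 for Actc1, -0.16 for Ckm and -0.29 for Tnnt2. These describe 6 arrays that share 2 ages, 2 scans and 1 normalisation, and the pattern of Myl2 is not particular to muscle genes. Of 11139 other genes compared, the 5 most like Myl2 were Or1j14, an olfactory receptor (r = 0.996), Gmps, an enzyme of guanine nucleotide synthesis (0.995), Tamm41, a mitochondrial enzyme of phospholipid synthesis (0.994), Polr2j, a subunit of RNA polymerase II (0.994), and Hpd, an enzyme of tyrosine breakdown (0.993). Their differences between the ages were -0.76, -0.75, -0.61, -1.09 and -1.28, each smaller in size than that of Myl2.

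The other genes of striated muscle mostly had lower values at 12 months as well. Of 98 further genes listed by function, 69 had a matched probe and 52 were tested, while 11 were well above background on no array. Among the 52, 5 fell and 1 rose at an adjusted p under 0.05 (limma), beside 3.05% and 5.32% of all tested probes, and 45 of the 52 had a difference below 0, as had 58% of all tested probes, with a median of -0.81 (-1.04 after the 75th percentile shift and -0.45 after normexp). At the study's threshold 18 of the 52 were lower and 2 higher, beside 11.9% and 10.1% of all tested probes. Some of the 52 were above background on no 12-month array, and of all such probes 32.77% were lower at that threshold. For the 28 above background on all 6 arrays the median was -0.82. With single arrays left out, the 6 calls were 2 (without 3-month replicate 1, 3-month replicate 3 or 12-month replicate 3) to 6, and Gata6 and Myh4 were called each time. Myh4 passed the filter through its 3-month arrays alone, so its calls rest on 12-month values not well above background. Among probes above background on all 6 arrays it was not tested.

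The thick filament list had the lowest median of these lists, -1.45 over 5 tested genes. Myl1, the light chain of fast skeletal muscle, fell from 9.46 ± 0.18 (SD, n = 3) to 7.58 ± 0.47 (SD, n = 3), a difference of -1.88 (SE 0.30, adjusted p = 0.0197, limma), and its other probe gave -1.76 (adjusted p = 0.0286, limma). Myh4, a fast skeletal heavy chain, fell from 5.21 ± 0.38 (SD, n = 3) to 2.59 ± 0.24 (SD, n = 3), -2.62 (SE 0.29, adjusted p = 0.00724, limma), but was dim (above background on 0 of 3) at 12 months, which leaves at least 1.32-fold lower. The atrial light chain Myl7, with Mybph and Myom3, was well above background on no array.

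In the thin filament list 0 of 7 tested genes passed the adjusted threshold (limma; 1, Tpm3, at the study's, and 2 at an unadjusted p under 0.05), and the median was -0.29. Tpm3, a tropomyosin made in slow muscle and in many other cells, went from 8.82 ± 0.77 (SD, n = 3) to 11.19 ± 0.91 (SD, n = 3), a difference of 2.37 (SE 0.56, adjusted p = 0.0508, limma), while its other probe gave -0.84 (adjusted p = 0.0942, limma). The probes of tropomyosin 1 disagreed more widely, which was noticed after their values were seen. Tpm1, whose transcripts are spliced in forms of striated muscle, smooth muscle and other cells, had 9 probes for different transcript accessions, 8 of them tested. Of these, 5 rose by 4.44 to 4.77 (SE 0.85 to 0.98, adjusted p from 0.0262 to 0.0414, limma), with single values of 2.25 to 5.35 at 3 months and 6.34 to 9.50 at 12 months, and were well above background on 1 or 2 of the 3-month arrays and on all 3 of the 12-month arrays. After normexp the same 5 differed by 2.24 to 2.40. The 3 others, bright on all 6 arrays, had differences of -0.80 to -0.44 (adjusted p from 0.172 to 0.240, limma). Which form each probe reads was not examined, and probes of 1 gene that share sequence are not independent of each other.

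The Z-disc, which anchors the thin filaments, had 10 tested genes with a median of -0.84, of which 1 fell. This was Hspb7, a small heat shock protein of heart and muscle, which went from 6.40 ± 0.24 (SD, n = 3) to 4.92 ± 0.47 (SD, n = 3), -1.48 (SE 0.31, adjusted p = 0.0375, limma), and was well above background on 1 of 3 arrays at 12 months. Among 10 genes of muscle energy supply (median -0.79) Slc2a4, the insulin-responsive glucose transporter GLUT4, fell from 7.92 ± 0.13 (SD, n = 3) to 6.76 ± 0.32 (SD, n = 3), -1.15 (SE 0.26, adjusted p = 0.0433, limma). Among 8 genes of calcium handling (median -0.93) Sln, sarcolipin, an inhibitor of the calcium pump of the sarcoplasmic reticulum, fell from 10.03 ± 0.60 (SD, n = 3) to 8.50 ± 0.30 (SD, n = 3), -1.53 (SE 0.36, adjusted p = 0.0499, limma). Each of these lists had 1 call, beside 3.05% of all tested probes. The calcium release channel of the heart, Ryr2, was well above background on no array.

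Among 12 cardiac hormones and muscle regulators (median -0.67) Gata6 rose and 0 fell at the adjusted threshold (limma; 4 were lower at an unadjusted p under 0.05, as at the study's threshold). Gata6, a transcription factor of heart and also of pancreas development, had 4.81 ± 0.40 (SD, n = 3) in 3-month islets and 8.65 ± 0.26 (SD, n = 3) in 12-month islets, a difference of 3.84 (SE 0.30, adjusted p = 0.00304, limma). The skeletal muscle regulators Myod1 and Myf6 were well above background on no array, and Myog and Myf5 were on all 6.

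Markers of other cell types moved with age beside these values, and their part in them was not tested. Of 7 tested genes of smooth muscle, which shares actin and myosin relatives with striated muscle, 2 fell and the median was -0.78. At the adjusted threshold 3.05% of all tested probes were lower and 5.32% higher. Actg2, the enteric smooth muscle actin, fell from 12.23 ± 0.35 (SD, n = 3) to 9.84 ± 0.65 (SD, n = 3), -2.39 (SE 0.39, adjusted p = 0.0199, limma). Cnn1, calponin, fell by 1.84 on the log2 scale (SE 0.39, adjusted p = 0.0375, limma). The list did not move as a whole. Lmod1 stood at -0.85, Tagln at -0.78, Mylk at -0.16 and Smtn at -0.03, and Myl9 was higher, at 2.87 (SE 1.30), all with ages that overlapped. The mean level of the smooth muscle list was 10.5 to 11.2 over the 3-month arrays and 9.95 to 10.8 over the 12-month arrays. That of the 10 genes, which takes in 12-month values not well above background, was 6.69 to 7.81 and 5.72 to 6.53. The lists are read by different probes, so each mean is compared only between the ages.

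Of 6 tested nerve and Schwann cell markers 2 fell, the median being -1.37. These were Prph, the intermediate filament peripherin of peripheral neurons, at -3.04 (SE 0.58, adjusted p = 0.0299, limma), and Sox10, a transcription factor of Schwann cells, at -2.08 (SE 0.38, adjusted p = 0.0335, limma) over 2 arrays at 3 months, its value on 3-month replicate 1 being missing. At the study's threshold 4 of the 6 were lower, beside 11.9% of all tested probes. The mean level of the 5 with a value on all 6 arrays was 9.52 to 10.4 at 3 months and 7.80 to 8.87 at 12 months. Of 6 tested stellate and fibroblast markers 1 rose, Pdgfrb, a receptor of pericytes and stellate cells, by 1.68 (SE 0.38, adjusted p = 0.0453, limma), and 5 of the 6 were higher at the study's threshold, beside 10.1% of all tested probes. The list mean was 9.75 to 10.7 at 3 months and 11.3 to 12.4 at 12 months. Neither list mean overlapped between the ages, that of the nerve-type markers being lower and that of the stellate-type markers higher at 12 months.

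The non-muscle relatives of the 10 genes, such as the actins and myosin light chains that every cell uses, had 0 calls among 11 tested genes at the adjusted threshold (limma; 1, Ngb, at an unadjusted p under 0.05 and at the study's), and a median of 0.11 that was -0.32 after the 75th percentile shift. Ngb, neuroglobin, the globin of neurons, stood at -1.13 (SE 0.30, adjusted p = 0.0643, limma). The list plot sets these medians beside that of the 10 genes.

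**Figure D4:**
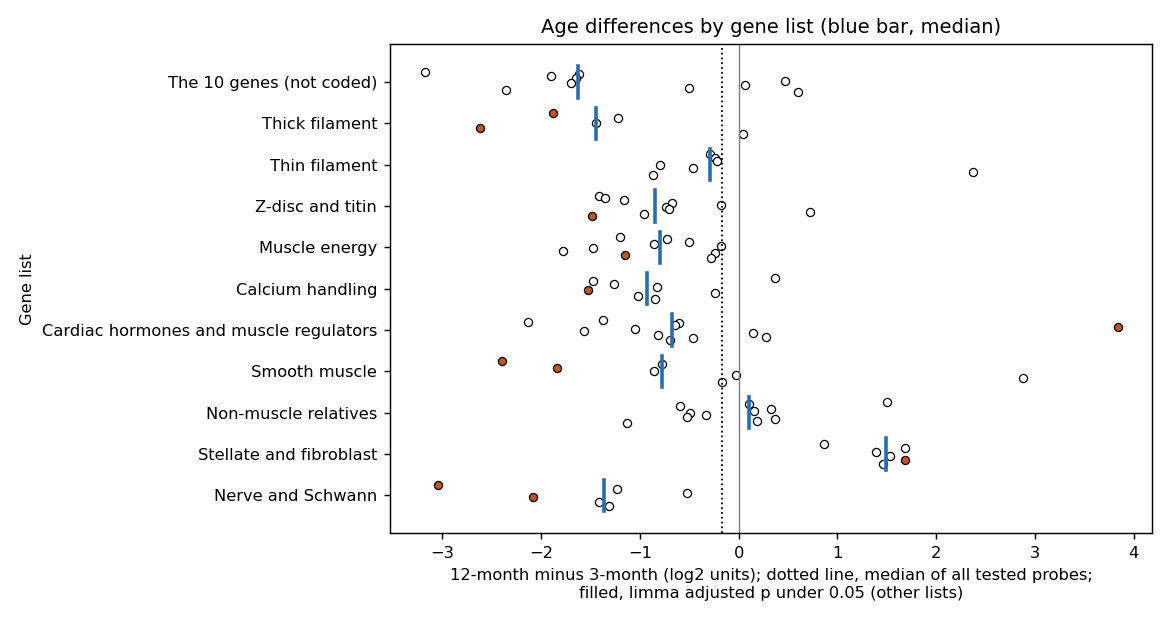
Difference between the ages, 12-month minus 3-month in log2 units (horizontal axis), of every tested gene (points, 1 probe each) by list (vertical axis), with the list's median (blue bar) and the median of all tested probes (dotted line, -0.17). Filled points passed an adjusted p under 0.05 in limma, which is left unmarked for the 10 genes because this contrast chose them. The medians of the 10 genes and of the thick filament list lie lowest, -1.63 and -1.45, and that of stellate and fibroblast markers highest, 1.5. This order depends on dim genes. Over genes above background on all 6 arrays the median was -0.50 for the 10 genes (5 left). It was then -1.66 for the thick filament list (2 left) and -1.32 for nerve and Schwann markers (5 left). After normexp these 3 medians were -0.50, -0.61 and -1.18. Some other lists also lay below the 10 genes in these settings, and others above.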

How the data were processed

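The authors hybridised total RNA labelled with Cy3 and deposited scanner files with spot intensity from Agilent Feature Extraction 11.0.1.1. Per the file headers, the processed intensity is background-subtracted and not normalised between arrays. The deposited table of log2 values for 12145 probes followed the values computed here with r of at least 0.9996 on each array. Its column medians were 9.40 to 9.48. Its scale matches quantile-normalised log2 signal with no gene centring, and the filter behind it is not stated.

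Here, the processed intensity was put on the log2 scale, spots of 1 probe were averaged after leaving out marked outliers, and values were quantile normalised over 24684 non-control probes (42136 spots). Probes well above background on at least 3 of 6 arrays (17944) were kept, 68 of them with a missing value, and 17941 were tested with limma 3.58.1 (two-sided lmFit and eBayes without a block, R 4.3.3) under Benjamini-Hochberg adjustment. The probe of highest mean stood for a gene with several. Names came from RefSeq accessions, of which 14274 of 15323 matched a table of build GRCr8. The array's design is on another build. Arrays have no depth, and their number limits the precision. RNA came from 3 rats per age, but the labels do not tie arrays to animals, and p-values measure the spread between arrays. An exact permutation test of 3 against 3 cannot give a two-sided p under 0.1.

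The 10 genes, the lists, the tests and the alternatives were chosen with earlier results of these data known. All 10 genes were named. Of each other list, up to 4 genes per direction were named by size among those past an adjusted p of 0.05 without overlap, or, if none passed, up to 3 past the study's threshold. For smooth muscle the other tested genes were named as well. Likeness to Myl2 named the 5 genes of highest Pearson r. Age came from the labels. The 12-month array called replicate 3 carries no number in them. The alternatives were a shift to a common 75th percentile, normexp with an offset of 50 on median signals, the authors' table, other filters, trend and robust variances, all probes of a gene, replicate blocks, 4 arrays whose names share an ending, the methods' t-test, an adjusted p under 0.1, and each array left out. Simulated data were used to test the fitting step. 1 listed marker gene is not reported here by name.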

Additional observations from a re-analysis of the deposited data

How the results depend on the processing

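The 4 of the 10 genes at an adjusted p under 0.05 (limma) became 2 among probes above background on all 6 arrays (5 genes left). They became 0 with a replicate block of 3 pairs, with a replicate block of the 2 numbered pairs, with only the 4 arrays that have name endings in common, and with the methods' t-test after Benjamini-Hochberg adjustment. At an unadjusted p under 0.05 these last 4 settings gave 6, 6, 5 and 5. With single arrays left out the count was 0 to 5, and where it was 0 the unadjusted count was 5 or 6. The 6 at the study's threshold became 3 with normexp and 2 above background on all 6 arrays, and were 5 to 6 with single arrays left out, among them Ckm as higher without 3-month replicate 1 and Tnnt2 as higher without 12-month replicate 2, both in place of Myl3. The 6 other striated muscle genes at the adjusted threshold became 11 with the 75th percentile shift, 1 with the replicate block of 3 pairs, 0 with that of 2 pairs (12 at an unadjusted p under 0.05), 0 with the 4 arrays (11 at an unadjusted p under 0.05), 2 with the t-test and 17 at an adjusted p under 0.1, and were 2 to 6 with single arrays left out. The 20 at the study's threshold became 8 with normexp, 11 above background on all 6 arrays, 12 with the block of 2 pairs and 9 with the 4 arrays, and were 16 to 24 with single arrays left out. The causes were not tested, other than that fewer genes or arrays entered some of these settings. Same-numbered arrays did not deviate together (correlations of -0.01, -0.31 and -0.26 over 17876 probes), so the numbers were not taken to pair them. The paper's supplement, however, names a paired t-test for its array p-values, and the t-test run here was unpaired. The block of 3 pairs is the setting nearest to a paired test. With it, 0 of the 10 genes passed the adjusted threshold and 6 the study's. The share of all probes past each threshold is given for the main processing only. The counts under the other settings therefore describe the settings, and nothing is read from them about these genes.

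The difference between the ages kept its sign under all 14 alternatives for Myl2, Myl3, Myh6 and Mb and under all 15 for Myh7, Tnni3 and Acta1, and under 13 of 15 for Tnnt2 and Ckm and 11 of 14 for Actc1. Several alternatives could not change it. Each gene has 1 probe, so dropping the filter, averaging probes and the block of 3 pairs repeat the main value. Where the ages do not overlap, leaving out arrays cannot turn the sign. These tallies are therefore a description and no support. With normexp it was -1.43 for Myl2, -0.49 for Myl3, -0.50 for Myh6, -1.13 for Tnni3 and -0.73 for Mb. With the 4 arrays it was -2.09 for Myl2 and -1.16 for Myh7, and with the 75th percentile shift -2.99 for Mb. Signal over background limits Myl2, Myh6 and Mb most, since their 12-month side is known only as a bound.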

Other observations

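The defining hormones and enzymes of the endocrine and acinar pancreas were bright at both ages. Of 6 tested beta cell markers 1 rose, Slc30a8, the zinc transporter of insulin granules, from 10.29 ± 0.31 (SD, n = 3) to 14.00 ± 0.82 (SD, n = 3), a difference of 3.71 (SE 0.44, adjusted p = 0.00904, limma), and the median of the list was 0.53 (-0.04 after the 75th percentile shift). The 4 other endocrine hormones had 0 calls in limma at the adjusted or the study's threshold (0 also at an unadjusted p under 0.05) and a median of 0.38 (-0.06 after that shift). The 6 acinar enzymes also had 0 calls by these measures and a median of 0.10, which was -0.38 after the shift, so no direction is given for these lists. The mean level of the acinar list was 16.6 to 17.9 over the 3-month arrays and 16.6 to 18.2 over the 12-month arrays.

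Of 3 endothelial markers, 0 passed the adjusted threshold in limma and 2 passed the study's, and an unadjusted p of 0.05, in opposite directions. Cdh5, a junction protein of endothelium, stood at -2.11 (adjusted p = 0.0515, limma) with only a bound of at least 1.54-fold lower, and Pecam1 at 1.23 (adjusted p = 0.124, limma). The 5 immune markers had 0 calls in limma, at an unadjusted p under 0.05 too, and a median of -0.01. Of 2 red blood cell genes, 0 passed the adjusted threshold in limma and Alas2, an enzyme of haem synthesis in red cells, passed the study's and an unadjusted p of 0.05 at -1.47 (adjusted p = 0.149, limma). The mean level of the red cell list was 12.9 to 13.9 at 3 months and 11.8 to 13.3 at 12 months.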
